A study of Mus musculus with 18 samples.

Results

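The renin–angiotensin genes examined here were angiotensinogen (AGT), angiotensin-converting enzyme (ACE), the glutamyl and alanyl aminopeptidases (ENPEP and ANPEP) and the type 1a angiotensin receptor (AGTR1A). The members were every probe of a mouse whole-genome bead array whose target name was 1 of these 5 symbols, which gave 7 probes of 45281, or 5 genes of 30854. The study asked which signals lead ES cells to endothelium under FGF2 or BMP4, and its arrays of day 3 comprised 18 samples in 6 groups of 3 biological replicates, each replicate being 1 well per condition. In 3 of the groups, murine ES cells carrying EGFP at the tau locus were grown on PA6 cells, a stromal line from mouse bone marrow, in serum-free medium (ES/PA6 co-cultures). In the other 3 groups PA6 cells were kept alone in the same medium (PA6 mono-cultures). Within each culture type, cells received no growth factor (-GFs), 20 ng/ml recombinant FGF2 or 10 ng/ml recombinant BMP4. RNA of a co-culture was a mixture from ES-derived and PA6 cells, both of mouse, so that the cell of origin of a transcript could not be read from it, and PA6 is a single cell line.

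Angiotensinogen is a secreted precursor, best known from liver and also made by adipose tissue. Renin cuts it to angiotensin I, and ACE, a peptidase on the cell surface, removes a dipeptide from the end of angiotensin I to give angiotensin II, the main ligand of the AT1 receptor, which raises vascular tone and acts on smooth muscle, adrenal and stromal cells. ACE also breaks down bradykinin. ENPEP (aminopeptidase A) and ANPEP (aminopeptidase N, or CD13) trim the resulting peptides in turn from the other end. ACE is a familiar surface protein of endothelium, and ANPEP is carried by many stromal and myeloid cells.

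The promoters of the members that changed are given first, since AGT and ACE moved in opposite directions under FGF2 in PA6 cells. Each is the stretch of 250 bases before the annotated start, 5′ to 3′ on the strand of the gene, from the RefSeq table of assembly GRCm38.p6. Capitals mark matches, on either strand, to the motifs named after them.
Ace, chr11:105967698-105967947, + strand: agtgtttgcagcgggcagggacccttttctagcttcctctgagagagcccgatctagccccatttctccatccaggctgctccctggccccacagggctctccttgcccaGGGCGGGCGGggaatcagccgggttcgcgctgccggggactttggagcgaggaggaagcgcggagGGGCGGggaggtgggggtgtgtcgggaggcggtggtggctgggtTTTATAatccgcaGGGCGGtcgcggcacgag
Agt, chr8:124569707-124569956, - strand: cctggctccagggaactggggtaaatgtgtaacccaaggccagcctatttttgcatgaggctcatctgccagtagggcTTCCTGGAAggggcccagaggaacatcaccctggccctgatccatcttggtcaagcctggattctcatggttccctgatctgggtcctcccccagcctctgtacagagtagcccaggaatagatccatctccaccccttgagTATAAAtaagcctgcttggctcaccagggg
Anpep, chr7:79848211-79848460, - strand: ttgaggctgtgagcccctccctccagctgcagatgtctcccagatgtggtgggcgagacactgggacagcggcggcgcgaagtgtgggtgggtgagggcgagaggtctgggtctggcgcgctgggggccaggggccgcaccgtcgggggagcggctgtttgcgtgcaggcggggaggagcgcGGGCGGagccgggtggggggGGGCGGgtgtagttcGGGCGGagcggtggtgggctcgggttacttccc
The Ace window held TATAAA at 31 to 26 bases before the start, read on the opposite strand, and 4 matches to GGGCGG, of which the pair beginning 140 and 136 bases before the start overlap. The Agt window held TATAAA at 30 to 25 bases and TTCNNNGAA, the letters of a STAT site, at 172 to 164 bases before the start. The Anpep window held no TATAAA and 3 matches to GGGCGG, and its GC content was 72.8%, against 67.2% for Ace and 55.6% for Agt. Of 32851 promoter windows of the same length, 12.4% held TATAAA, 32.7% held GGGCGG and 7.02% held TTCNNNGAA. None of these 3 windows held TGANTCA, the AP-1 site (6.75% of all windows), CCGGAA, an ETS core (12%), the CCAAT box (33.8%), the SMAD palindrome GTCTAGAC (0.167%) or the BMP-type SMAD element GGCGCC (9.59%). A match describes letters and not a site in use. A second Ace start lay downstream at chr11:105974939-105975188 and the Enpep window at chr3:129332750-129332999.

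Values below are normalized intensities on the log2 scale, and a probe was counted as detected on an array where its deposited detection p was under 0.05. Between 19365 and 20412 probes were detected on the ES/PA6 arrays and between 17125 and 18391 on the PA6 arrays, and normalized arrays within a group correlated at 0.981 to 0.992 over genes. In all, 16446 genes were tested, and a gene was called where its Benjamini-Hochberg adjusted p in the limma fit over all genes was under 0.1 and its log2 change exceeded 1 in size. Of the members, AGT, ACE, ANPEP and AGTR1A passed the filter of detection on at least 3 of 18 arrays and ENPEP did not, so counts below are of 4 tested members. Pluripotency markers marked the co-cultures, with a summed level of 21069 to 42815 on the ES/PA6 arrays and 297 to 404 on the PA6 arrays over 6 genes. All 9 stromal markers listed were detected on every PA6 array.

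AGT fell with FGF2 in PA6 cells, and its BMP4 arrays there lay above those without growth factors. In PA6 mono-cultures its level was 10.45, 10.21 and 9.91 on the 3 -GFs arrays. With FGF2 it was 8.08, 8.13 and 7.67, below every -GFs array, and with BMP4 it was 11.59, 11.35 and 11.01, above every -GFs array. The probe was detected on all 9 PA6 arrays. The fall with FGF2 was 2.23 on the log2 scale (SE 0.476, 95% interval -3.24 to -1.22, 4.69-fold lower, limma adjusted p = 0.00428). Against the -GFs array of the same number the 3 differences were -2.37, -2.08 and -2.24. The difference with BMP4 was 1.13 (interval 0.12 to 2.14, limma adjusted p = 0.311) and was not called, although the groups did not overlap (as for 21.5% of all genes, and 33.8% with FGF2) and the 3 same-number differences were 1.15, 1.14 and 1.11. Same-number BMP4 and -GFs arrays of PA6 cells deviated together only weakly (r = 0.112 to 0.164). Pairs across culture types ran from -0.0248 to 0.175, so a pairing in PA6 cells is uncertain. With replicate as a block the BMP4 difference was called (adjusted p = 0.0159). It was also called in a fit of the PA6 arrays alone (adjusted p = 0.0234) and after quantile (0.0425) or cubic spline (0.0383) normalization without background correction. Set against each other, FGF2 cultures were 3.36 below BMP4 cultures in PA6 cells (10.3-fold, limma adjusted p = 0.000115).

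In ES/PA6 co-cultures AGT lay far lower and varied more between replicates. Its level was 6.40, 7.08 and 5.46 on the -GFs arrays, the third of them undetected. With FGF2 it was 5.57, 5.92 and 5.19, detected on 1 array of 3, and with BMP4 it was 7.69, 8.46 and 6.00, detected on all 3. Each group overlapped the -GFs group, and within every replicate number the order was FGF2, then -GFs, then BMP4. Neither difference from -GFs was called. It was -0.75 with FGF2 (interval -1.76 to 0.26, limma adjusted p = 0.474) and 1.07 with BMP4 (interval 0.06 to 2.08, limma adjusted p = 0.420). The numbers pair the ES/PA6 arrays, and with replicate as a block the BMP4 difference was called (limma adjusted p = 0.0258). It was also called without BMP4 replicate 3, at 1.77 (adjusted p = 0.0387). The contrast of FGF2 with BMP4 was called at -1.82 (SE 0.476, 3.54-fold lower, limma adjusted p = 0.0355). That call was lost without FGF2 replicate 3 (-1.63, adjusted p = 0.115), BMP4 replicate 1 (-1.67, 0.102) or BMP4 replicate 2 (-1.28, 0.173), and in a fit of the ES/PA6 arrays alone (0.179).

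ACE was raised by FGF2 in both culture types and did not move detectably with BMP4. In ES/PA6 co-cultures its level was 6.16, 6.08 and 5.23 without growth factors, 8.47, 7.93 and 7.38 with FGF2, and 6.33, 5.68 and 5.97 with BMP4. The FGF2 arrays were all above the other 6 (FGF2 and -GFs groups did not overlap for 19.3% of all genes). In PA6 mono-cultures the level was 5.81, 5.46 and 5.69 without growth factors, 8.99, 9.0003 and 8.90 with FGF2, and 5.22, 5.70 and 5.47 with BMP4, and the probe was detected there on the FGF2 arrays only. The rise in co-cultures was 2.10 (SE 0.267, interval 1.53 to 2.67, 4.29-fold, limma adjusted p = 0.000164). In PA6 cells the fitted rise was 3.31 (limma adjusted p = 5.61e-07), which, against arrays without a detected signal, is at least 6.34-fold. Within the replicate numbers the rises were 2.30, 1.84 and 2.15 in co-cultures and 3.18, 3.54 and 3.21 in PA6 cells. Both were called under all 31 alternatives tried. The study had picked ACE from its day 3 co-culture array results for PCR, which it reported as increased with FGF2 too. Its call here is therefore no independent evidence.

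With BMP4, ACE differed from -GFs by 0.17 in co-cultures (interval -0.40 to 0.73, limma adjusted p = 0.925), with same-number differences of 0.16, -0.41 and 0.74. In PA6 cells it was not detected with or without BMP4. FGF2 cultures exceeded BMP4 cultures by 1.93 in co-cultures (limma adjusted p = 0.000462) and were at least 6.82-fold higher in PA6 cells (limma adjusted p = 3.04e-07). These values rest on 1 probe of 3 for ACE, since the other pair of probes was detected on 0 of 18 arrays, with raw intensities up to 128.7 and 130.5 against 661.2 for the probe used.

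**Figure D1:**
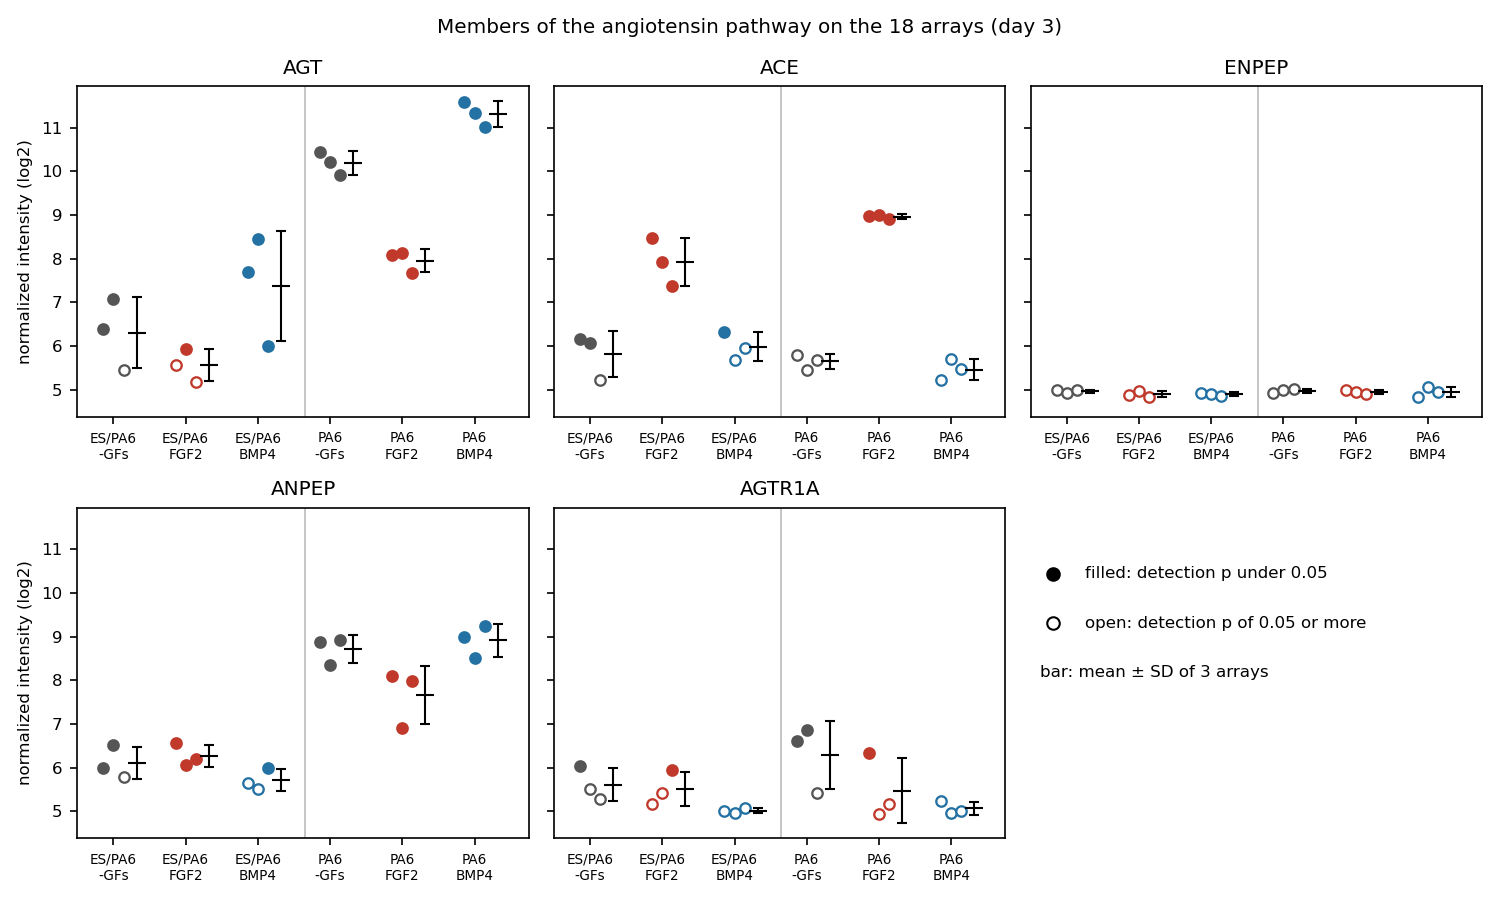
Normalized intensity (log2) of AGT, ACE, ANPEP, ENPEP and AGTR1A on each of the 18 arrays by group, with filled points for arrays where the probe was detected, open points where it was not, and bars for the mean ± SD of 3 arrays. ACE was high on the 6 FGF2 arrays, AGT and ANPEP were high in the PA6 mono-cultures, and ENPEP was open on every array.

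ANPEP was brighter in PA6 mono-cultures than in co-cultures, and it fell there with FGF2. Its level on the PA6 arrays was 8.88, 8.34 and 8.93 without growth factors, 8.10, 6.90 and 7.99 with FGF2, and 9.0008, 8.50 and 9.25 with BMP4. FGF2 replicate 2 was the lowest of these arrays, and the FGF2 group lay wholly below the other groups (FGF2 and -GFs groups did not overlap for 33.8% of all genes). The fall was 1.05 on the log2 scale (interval -1.68 to -0.42, 2.07-fold lower, limma adjusted p = 0.0243), with same-number differences of -0.78, -1.44 and -0.94. The size was near the threshold, and the call was lost after quantile (-0.77) or cubic spline (-0.71) normalization and without FGF2 replicate 2 (-0.67, adjusted p = 0.139), -GFs replicate 1 (-0.97) or -GFs replicate 3 (-0.94). The contrast of FGF2 with BMP4 in PA6 cells was -1.25 (limma adjusted p = 0.0082), and it was lost without FGF2 replicate 2 (-0.87) and after quantile (-0.93) or cubic spline (-0.87) normalization. With BMP4 alone the difference from -GFs was 0.20 (interval -0.43 to 0.83, limma adjusted p = 0.905).

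In ES/PA6 co-cultures ANPEP was dim, at 6.00, 6.52 and 5.79 without growth factors, 6.56, 6.07 and 6.19 with FGF2, and 5.65, 5.51 and 5.98 with BMP4. It was detected on 2, 3 and 1 arrays of these groups. Neither factor gave a called difference, at 0.17 with FGF2 (interval -0.46 to 0.80, limma adjusted p = 0.858) and -0.39 with BMP4 (interval -1.02 to 0.24, limma adjusted p = 0.750). ENPEP, the other aminopeptidase, was detected on 0 of 18 arrays. Its raw intensity was 81.8 to 113.7 and its lowest detection p was 0.543, so that no level and no fold can be given for it.

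AGTR1A, the receptor, stayed close to background in all groups. In PA6 cells its level was 6.60, 6.87 and 5.41 without growth factors, 6.33, 4.94 and 5.16 with FGF2, and 5.24, 4.96 and 5.01 with BMP4, and it was detected on 2, 1 and 0 arrays. In ES/PA6 co-cultures it was 6.04, 5.51 and 5.29, then 5.16, 5.43 and 5.94, then 4.999, 4.96 and 5.08 in the same order of treatments, detected on 1, 1 and 0 arrays. The BMP4 arrays lay below all -GFs arrays in both culture types (groups did not overlap for 13% of all genes in co-cultures and 21.5% in PA6 cells) and no BMP4 array had a detected signal. By the limma fit used for all contrasts, no difference was called within a culture type. The PA6 difference with BMP4 was -1.23 (SE 0.364, interval -1.999 to -0.453, limma adjusted p = 0.102), at least 1.07-fold lower. With replicate as a block it was called (adjusted p = 0.0563), as it was without PA6 -GFs replicate 3 (-1.68, adjusted p = 0.0215), FGF2 replicate 1 (0.0444), FGF2 replicate 2 (0.0872) or ES/PA6 FGF2 replicate 3 (0.0965). Array weights (-1.35, limma adjusted p = 0.0230) or a variance trend and robust fit (0.0658) also gave a call. With FGF2 the PA6 difference was -0.82 (limma adjusted p = 0.164), and it was called without -GFs replicate 3 (-1.27, 0.0236) or FGF2 replicate 1 (-1.25, 0.025) or with array weights (-1.001, 0.0504). In co-cultures the differences were -0.60 with BMP4 (limma adjusted p = 0.636) and -0.10 with FGF2 (limma adjusted p = 0.938).

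**Figure D2:**
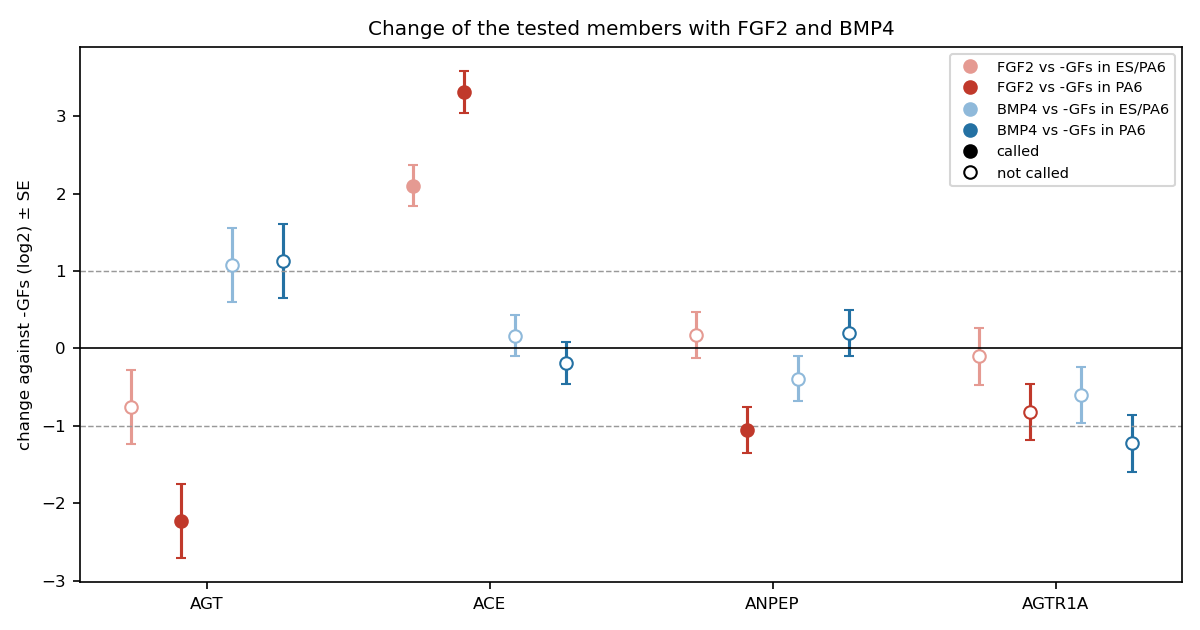
Log2 change against -GFs ± SE of AGT, ACE, ANPEP and AGTR1A with FGF2 and BMP4 in each culture type, with filled points for called changes and dashed lines at -1 and 1. ACE was called with FGF2 in both culture types, and AGT and ANPEP were called lower with FGF2 in PA6 cells.

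Counted together, FGF2 changed 1 of the 4 tested members in co-cultures, ACE, where 3.34% of all genes were called. In PA6 cells it changed 3 of 4, ACE upward and AGT and ANPEP downward, where 5.27% of all genes were called, 2.71% higher and 2.56% lower. BMP4 changed 0 of 4 in either culture type by the limma fit, against 0.76% of genes in co-cultures and 1.41% in PA6 cells. AGT alone (co-cultures) and AGT and AGTR1A (PA6 cells) reached an unadjusted p under 0.05 with BMP4, as did 10.9% and 12.6% of all genes. With replicate as a block the count was 1 of 4 in co-cultures, AGT, where 215 of 16446 genes were called. In PA6 cells it was 2 of 4, AGT and AGTR1A, where 276 of 16446 were. FGF2 and BMP4 differed in 2 of 4 members in co-cultures (2.85% of genes) and 3 of 4 in PA6 cells (5.82%), the latter becoming 2 of 4 after quantile or cubic spline normalization or without PA6 FGF2 replicate 2, where ANPEP was lost. The comparisons of FGF2 and of BMP4 with -GFs share their control arrays. The members had been chosen with results of these arrays known, and their counts describe them only.

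The FGF2 effect was called as different between culture types for ACE and ANPEP, and which members were called depended on the normalization. The ACE rise was smaller in co-cultures than in PA6 cells by 1.21 (SE 0.378, interval -2.01 to -0.41, limma adjusted p = 0.0536). ACE was undetected on all 3 PA6 -GFs arrays, so the size of this difference rests on values below detection. The PA6 rise was at least 6.34-fold, against 4.29-fold in co-cultures. For ANPEP the difference of effects was 1.22 (SE 0.418, interval 0.33 to 2.11, limma adjusted p = 0.0788). So 2 of 4 members were called in this contrast, where 7.39% of all genes were. Both calls were close to the thresholds, and neither passed at an adjusted p under 0.05. Without background correction both fell under the fold threshold, ACE at -0.86 with quantile and -0.81 with cubic spline normalization, the method the study used, and ANPEP at 0.85 and 0.79. The call of ACE was lost on leaving out any of 5 arrays, namely ES/PA6 -GFs replicate 1 or 2, ES/PA6 FGF2 replicate 3, PA6 -GFs replicate 2 or PA6 FGF2 replicate 2 (adjusted p = 0.104 to 0.122), and that of ANPEP on leaving out any of 7, namely ES/PA6 -GFs replicate 1 or 3, ES/PA6 FGF2 replicate 1 or 3, PA6 -GFs replicate 1 or 3 or PA6 FGF2 replicate 2 (0.1005 to 0.179). For AGT the difference of FGF2 effects was 1.48 (interval 0.05 to 2.91, limma adjusted p = 0.193) and was not called. It was called after quantile (1.47, adjusted p = 0.0189) or cubic spline normalization (1.39, 0.0216), with an offset of 50 (1.58, 0.0524), with replicate as a block (0.00963) and without ES/PA6 BMP4 replicate 3 (0.0604). For BMP4, 0 of 4 members were called, 0.559% of all genes were, and 0 of 4 reached an unadjusted p under 0.05, as 9.74% of genes did. A dim co-culture signal is compressed by the offset added before the logarithm, so differences of effect sizes between culture types are on this scale only.

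AGT and ANPEP were lower in ES/PA6 co-cultures than in PA6 mono-cultures under every treatment. Without growth factors AGT was lower by 3.88 (SE 0.476, 14.7-fold, limma adjusted p = 2.19e-06) and ANPEP by 2.61 (SE 0.296, 6.12-fold, limma adjusted p = 8.65e-07), and the groups did not overlap, as for 70.4% of all genes. With FGF2 the folds were 5.27 and 2.63 (limma adjusted p = 0.000317 and 0.000574), and with BMP4 they were 15.3 and 9.20 (limma adjusted p = 1.94e-06 and 9.19e-08). ACE gave no called difference without growth factors (0.17, interval -0.40 to 0.74, limma adjusted p = 0.590) and was 2.05-fold lower in co-cultures with FGF2 (limma adjusted p = 0.00263). AGTR1A differed by -0.68 without growth factors (limma adjusted p = 0.110), and by -1.13 without PA6 -GFs replicate 3 (adjusted p = 0.00836). In this contrast 2 of 4 members were called without growth factors, where 39% of all genes were, with FGF2 3 of 4, where 37.2% were, and with BMP4 2 of 4, where 38.1% were. Stromal markers moved the same way. Of 9 listed, 7 were called lower in co-cultures without growth factors with a median of -1.61, and their summed level was 43084 to 74479 on ES/PA6 arrays and 117599 to 152588 on PA6 arrays. Fewer PA6 cells in a co-culture and less RNA of a gene per cell cannot be told apart in bulk RNA.

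Markers of fat cells, which PA6 cells can form, moved with AGT, and their part in its change was not tested. Of 10 adipocyte markers listed, 6 were tested. With FGF2 in PA6 cells 4 of the 6 fell, with log2 changes of -4.65 for the adipokine ADIPOQ, -4.79 for the secreted protease CFD and -2.75 for the lipase LPL. The lipid-droplet protein CIDEC, undetected on the 3 FGF2 arrays like LIPE, was at least 21.5-fold lower. The summed level of the 6 genes was 10285 to 13443 on the PA6 -GFs arrays, 1582 to 1843 with FGF2 and 26628 to 58825 with BMP4. Within the PA6 groups the sum and AGT did not rank alike. Replicate 1 had the lowest sum and the highest AGT level with BMP4 (26628 and 11.59) and without growth factors (10285 and 10.45). With FGF2, replicate 3 had the lowest of both. With BMP4 in PA6 cells 1 marker was called, LPL (1.26), and with replicate as a block 5, also ADIPOQ (1.85), CFD (1.66), CIDEC (1.27) and PPARG (1.09). The LPL call was lost without -GFs replicate 2 or 3 or BMP4 replicate 2, at 1.09 to 1.39 over the alternatives. In co-cultures the sum was 2375 to 4713 without growth factors, 1712 to 2001 with FGF2 and 9184, 28377 and 6430 with BMP4. BMP4 replicate 2 had both the highest sum and the highest AGT level of the co-cultures, and BMP4 replicate 3 the lowest of both within its group. There BMP4 raised ADIPOQ (3.45) and CFD (3.19, 2.40 to 4.01 over the alternatives, dropping out when -GFs replicate 3 or BMP4 replicate 2 was omitted), FGF2 lowered ADIPOQ (-2.37, -2.98 to -1.47 over the alternatives, not called without -GFs replicate 2 or FGF2 replicate 3), and with replicate as a block 4 markers were called higher with BMP4 and 3 lower with FGF2. AGT is itself made by fat cells, and fewer such cells and less AGT per cell cannot be told apart here. Of 7 endothelial markers tested, 0 were called with FGF2 in co-cultures, where 3.34% of all genes were, and their median was -0.04. PECAM1 gave 0.98 there, under the fold threshold (limma adjusted p = 0.0755), a second probe giving a called 1.29. With BMP4 there it gave 1.17 and was called, as under 8 of 28 alternatives (limma adjusted p = 0.0994), its second probe giving 0.78, not called. In PA6 cells BMP4 raised EGFL7 by 1.65 (limma adjusted p = 0.000471) and FGF2 lowered TEK, the angiopoietin receptor, by 1.71 (limma adjusted p = 3.84e-05), the latter call being lost after cubic spline normalization.

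**Figure D3:**
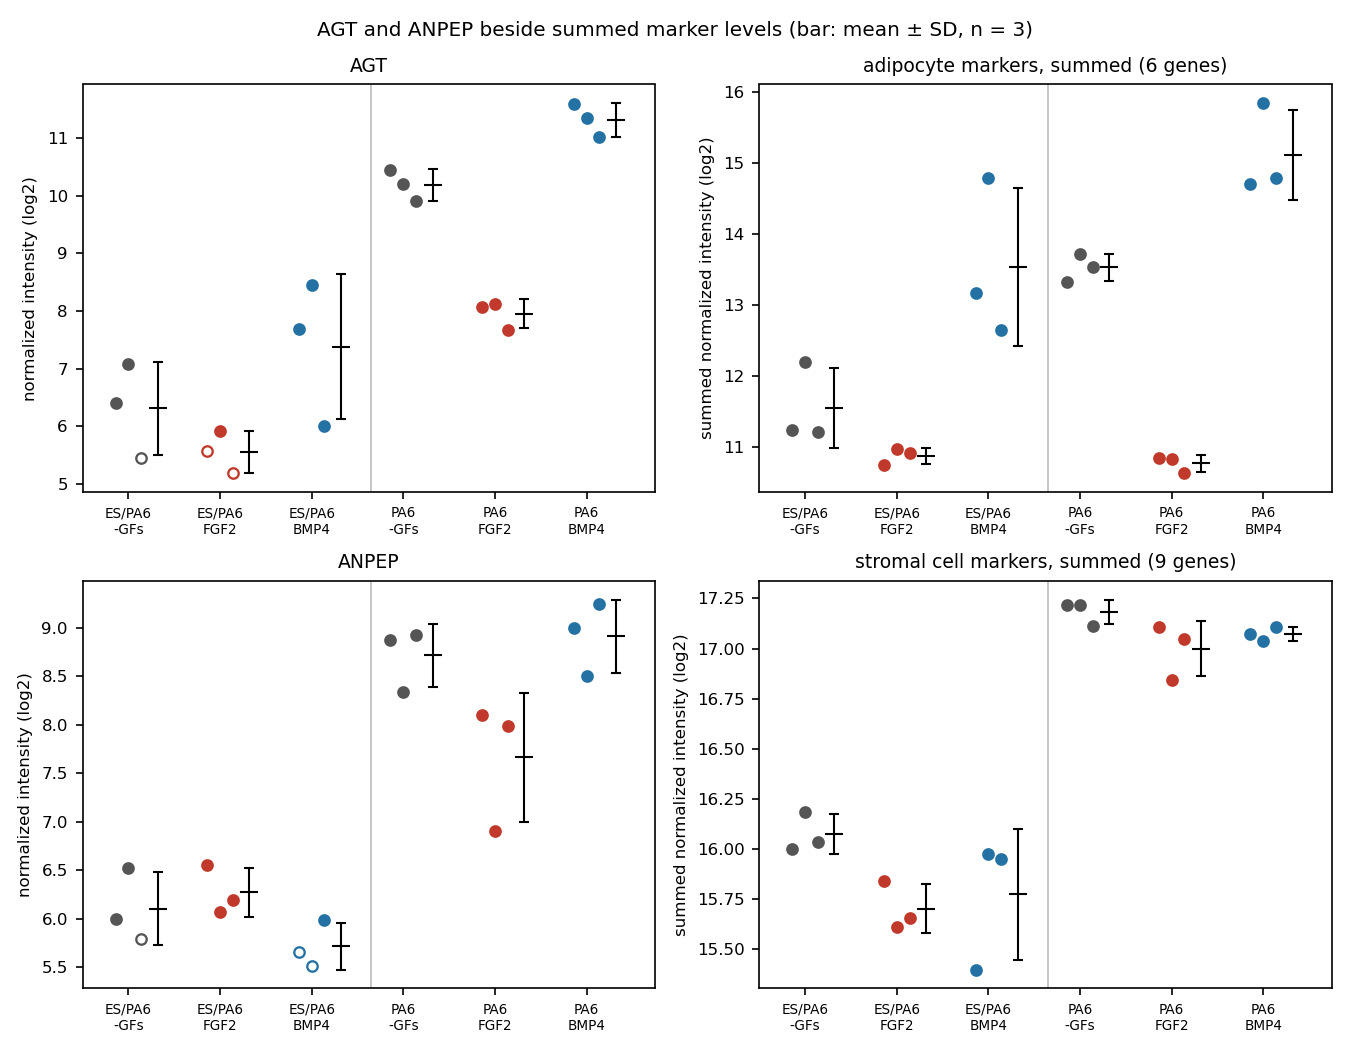
Normalized intensity (log2) of AGT and ANPEP on each array beside the log2 of the summed level of 6 adipocyte and 9 stromal markers, with the mean ± SD of 3 arrays as bars and open points where a member was not detected. The group means of AGT and of the adipocyte sum were lowest with FGF2 and highest with BMP4 in each culture type, and ANPEP and the stromal sum were both higher on all 9 PA6 arrays than on the ES/PA6 arrays.

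The order of the 6 group means differed between members. For AGT it ran from PA6 with BMP4 (11.32 ± 0.292, SD, n = 3) through PA6 -GFs (10.19 ± 0.272) and PA6 with FGF2 (7.96 ± 0.255) to ES/PA6 with BMP4 (7.38 ± 1.26), -GFs (6.31 ± 0.813) and FGF2 (5.56 ± 0.369). Of its neighbours, only PA6 -GFs and PA6 with FGF2 differed past the threshold. For ACE, PA6 with FGF2 (8.96 ± 0.0522) was above ES/PA6 with FGF2 (7.92 ± 0.543), which was above ES/PA6 with BMP4 (5.99 ± 0.325), both differences being called. The remaining ACE groups, ES/PA6 -GFs (5.82 ± 0.519), PA6 -GFs (5.65 ± 0.177) and PA6 with BMP4 (5.47 ± 0.239), overlapped their neighbours. For ANPEP, PA6 with BMP4 (8.92 ± 0.379) and -GFs (8.72 ± 0.326) overlapped, PA6 with FGF2 (7.67 ± 0.664) differed from its neighbours on either side, and the 3 co-culture groups (6.27 ± 0.254 with FGF2, 6.10 ± 0.374 without and 5.71 ± 0.243 with BMP4) each overlapped the next in order. For AGTR1A every neighbouring pair overlapped.

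Of the other genes of the angiotensin system, some were called with FGF2 and none with BMP4 by the limma fit. Of 25 listed, 12 were tested. Renin (REN1, REN2), the receptors AGTR1B, AGTR2 and MAS1, the chymases and LNPEP were among the 13 that were not. FGF2 raised 1 of 12 in co-cultures, the tissue kallikrein KLK1, from 6.83 ± 0.877 to 8.47 ± 0.299 (1.64, SE 0.341, limma adjusted p = 0.00774), and KLK1 was undetected in PA6 cells. In PA6 cells FGF2 raised MME (neprilysin, which degrades angiotensin peptides and others) by 1.23 (limma adjusted p = 0.00583), a call lost without PA6 FGF2 replicate 1 (0.99). CTSA, a lysosomal carboxypeptidase, was called lower by 1.97 at its brightest probe (limma adjusted p = 1.22e-07), but its other 4 kept probes gave 0.38, -0.37, -0.27 and 0.14, none called, so the probes of CTSA disagree. With FGF2, 3.34% of all genes were called in co-cultures and 5.27% in PA6 cells. Of the 12, 1 and 7 had an unadjusted p under 0.05 with FGF2, as did 17.8% and 26% of all genes. By the limma fit BMP4 changed 0 of 12 in either culture type, where 0.76% and 1.41% of all genes were called. An unadjusted p under 0.05 was reached by 2 in co-cultures and 2 in PA6 cells, as by 10.9% and 12.6% of all genes. Without growth factors KLK1 (at least 1.45-fold) and the cytosolic peptidases THOP1 (1.93) and DPP3 (1.09) were called higher in co-cultures than in PA6 cells, and CTSA (-2.70) and CTSD (-1.31) lower, which makes 5 of 12, where 39% of all genes were called. The medians of the list lay between -0.03 and 0.10 in the 4 comparisons of a factor with -GFs, and those of all genes between -0.008 and 0.01.

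Among 15 aminopeptidases and related peptidases 7 were tested, MME and RNPEP of the angiotensin list among them. With FGF2, FAP was called lower in both culture types and MME higher in PA6 cells. In these comparisons 3.34% of all genes were called in co-cultures and 5.27% in PA6 cells. FAP, a serine protease of activated stroma, fell with FGF2 by 2.35 in PA6 cells (limma adjusted p = 0.000382, all 28 alternatives). In co-cultures, where it was undetected with FGF2, it was at least 2.10-fold lower (limma adjusted p = 0.0589). That call held under 20 of 28 alternatives and was lost without -GFs replicate 1 or 2 or any FGF2 replicate, with log2 changes of -1.48 to -0.63 over the alternatives. Of the 7, 1 in co-cultures and 5 in PA6 cells had an unadjusted p under 0.05 with FGF2 (17.8% and 26% of all genes). By the limma fit BMP4 changed 0 of 7 in either culture type, where 0.76% and 1.41% of all genes were called. With BMP4 the unadjusted p was under 0.05 for 2 in co-cultures and 3 in PA6 cells (10.9% and 12.6% of all genes). Without growth factors DPP4 (at least 6.71-fold) and ECE2 (1.67) were called higher and FAP (-2.55) lower in co-cultures than in PA6 cells.

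The kinin system, whose peptide bradykinin ACE also inactivates, had 10 genes listed and 8 tested. In PA6 cells FGF2 raised BDKRB1, the inducible bradykinin receptor, by at least 2.29-fold (limma adjusted p = 1.71e-05), a call lost after quantile or cubic spline normalization without background correction. Kininogen KNG1 rose by 1.75 (limma adjusted p = 0.0112). A second KNG1 probe gave 2.57, and the near-identical KNG2 gave 0.95 at its brightest probe and 2.64 at another, so which kininogen gene rose is uncertain. XPNPEP2, a membrane aminopeptidase that cleaves bradykinin, fell in all 4 comparisons with -GFs, by 1.16 with FGF2 and 1.15 with BMP4 in co-cultures and by 1.22 and 1.53 in PA6 cells (limma adjusted p = 0.00624, 0.0293, 0.00176 and 0.00177). The 4 share their -GFs arrays within a culture type, and cubic spline normalization without background correction took each under the fold threshold. Within co-cultures leaving out -GFs replicate 2 ended both calls, and leaving out FGF2 replicate 1 ended that with FGF2. Without growth factors the carboxypeptidases CPN1 (at least 10.02-fold) and CPM (at least 3.26-fold) were called higher in co-cultures than in PA6 cells, and KNG1 (-1.04), KNG2 (-1.34) and CPE (-1.71) lower. The other CPN1 probes gave 2.05, called, and -0.09, not called, so its probes disagree. With replicate as a block, KNG2 was called higher with BMP4 in co-cultures (limma adjusted p = 0.00196), and KNG1 (1.01) and KNG2 (1.05) in PA6 cells (0.00278 and 0.00135).

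Genes known to respond when angiotensin II binds the AT1 receptor were listed as 18, of which 14 were tested. In PA6 cells FGF2 raised 6, the cytokine-like SPP1 (osteopontin) by 5.01, IL6 by at least 3.65-fold, the chemokine CCL2 by 2.58, the G-protein regulators RGS4 and RGS2 by 2.52 and 1.24, and the matrix protein CTGF by 2.11 (limma adjusted p from 1.64e-06 to 0.0288). The RGS2 call was lost without PA6 -GFs replicate 2 or FGF2 replicate 2. FGF2 lowered 2, the vasoconstrictor EDN1 (-2.34, limma adjusted p = 0.00185) and the transcription factor EGR1 (-2.16, limma adjusted p = 0.000443). The list's median was 0.73 there and that of all genes -0.007, and 5.27% of all genes were called in this comparison. Whether the AT1 receptor had a part in these changes was not tested. The study had picked SPP1 from its co-culture array results for PCR, which it reported as increased with FGF2 too. Its calls on these arrays are therefore no independent evidence. The study also reported TGFB1, and CTGF at days its text does not name, as up-regulated by FGF2 in co-cultures and PA6 cells. Here TGFB1 was called with FGF2 in neither culture type. CTGF was called in PA6 cells only, its probes giving -0.37 and -0.25 in co-cultures. In co-cultures FGF2 raised SPP1 (1.95, limma adjusted p = 0.0613, called under 22 of 28 alternatives, 1.59 to 2.40 over them, and lost without -GFs replicate 2 or 3 or FGF2 replicate 1 or 2) and BMP4 lowered the endothelin receptor EDNRB (-4.04, limma adjusted p = 0.0129, lost in a fit of ES/PA6 arrays alone). A second EDNRB probe gave -1.99 and was not called, so the probes differ in size. With replicate as a block CCL2 was lower with BMP4 too in co-cultures (-1.77, limma adjusted p = 0.0011), and CCL2 (-1.19, 0.00556) and SPP1 (-1.70, 0.0319) in PA6 cells. BMP4 raised RGS2 in PA6 cells (1.30, limma adjusted p = 0.0748, called under 21 of 29 alternatives, 0.75 to 1.49 over them, and lost without any 1 of the -GFs replicates or BMP4 replicate 2). Without growth factors CTGF (2.84), EDNRB (at least 10.3-fold), CCL2 (2.07) and SPP1 (3.57) were called higher in co-cultures than in PA6 cells, and EDN1 (-2.33) and the oxidase genes NOX4 (-1.87) and CYBA (-1.43) lower.

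**Figure D4:**
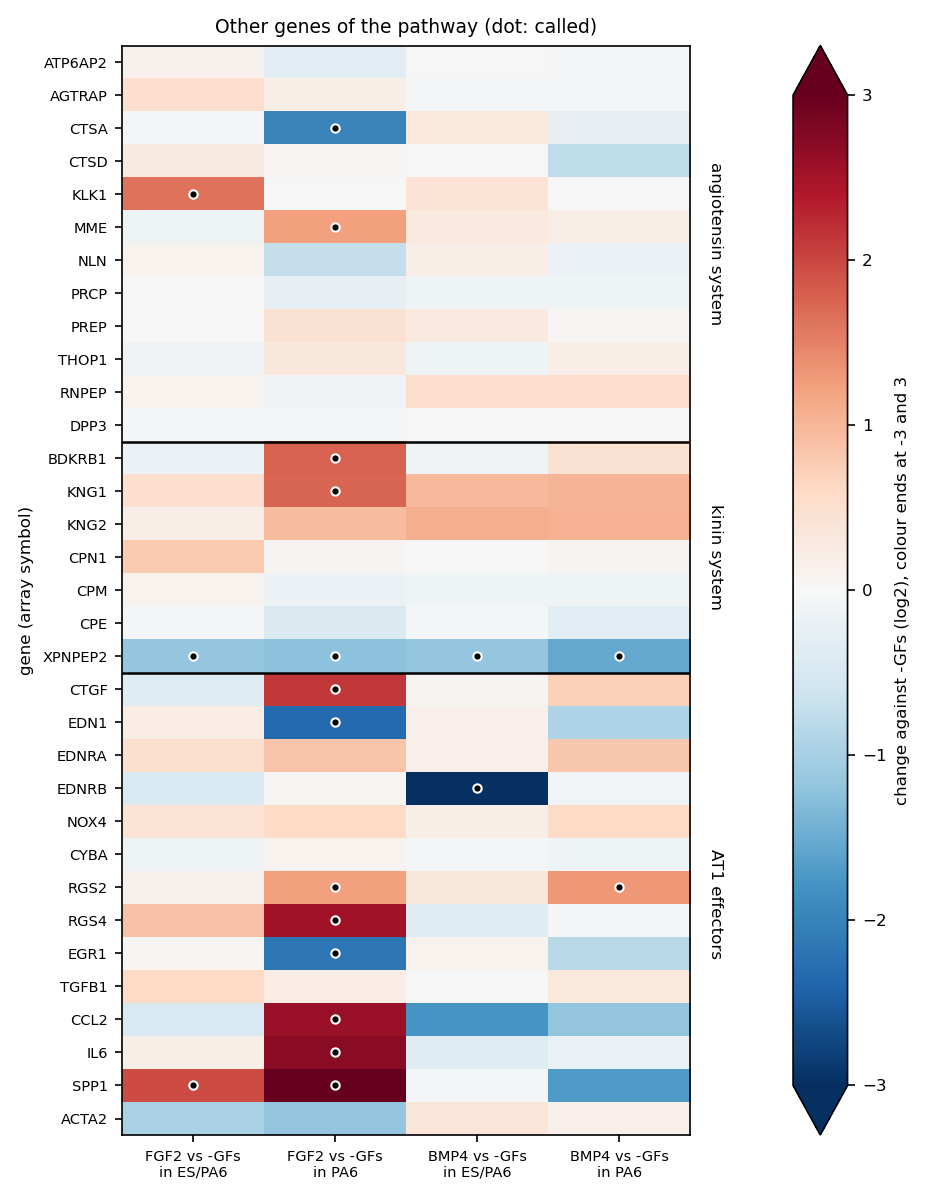
Log2 change against -GFs of the tested genes of the angiotensin system, kinin system and AT1-receptor effector lists in the 4 comparisons of a factor with -GFs, with a dot where the gene was called and the colour scale ending at -3 and 3. Called genes were densest among the effectors with FGF2 in PA6 cells, where 6 of 14 rose and 2 fell (5.27% of all genes were called). XPNPEP2 was called lower in all 4 columns.

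Over the 18 arrays the genes whose normalized level followed that of ACE most closely were SERPINA3N (Pearson r = 0.974), IL13RA1 (0.971), STEAP1 (0.966), CXCL14 (0.959) and PRL2C3 (0.957). Over the 9 PA6 arrays they were SOCS3 (0.997), SERPINA3N (0.995) and UGT1A7C (0.995). For AGT the 5 were VIT (0.977), SLC16A4, MBNL1 and SNAI2 (each 0.971) and GSTT3 (0.969), and over the PA6 arrays CAT (0.991), LLGL2 (0.990) and 4632401N01RIK (0.989). For ANPEP they were FMO5 (0.979), AI662250 (0.978), KCNAB1 (0.976), COL27A1 and PAPSS2 (each 0.973), and over the PA6 arrays TTC30B (0.984), DDX11 (0.972) and TLR6 (0.970). AGTR1A had looser companions over all arrays, SWAP70 (0.811), PHAX (0.788), DOCK9 (0.767), LMCD1 (0.746) and NCALD (0.729). Over the PA6 arrays they were SWAP70 (0.972), NLRP4C (0.965) and 1810009N02RIK (0.949). AGTR1A was detected there on 2, 1 and 0 arrays without growth factors, with FGF2 and with BMP4. The NLRP4C means there, 5.35, 5.22 and 5.15 in the same order, lay under the dimmest detected signal of any PA6 array (6.14). The AGTR1A values behind these r are near background, as are those of NLRP4C. The arrays fall into 6 groups, so each r of ACE, AGT and ANPEP reflects group differences in the main and is given as a description. AGTR1A was detected on 5 of 18 arrays, and its SD within the PA6 -GFs and FGF2 groups was 0.774 and 0.750. Its r values therefore also hold scatter between replicates near background.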

How the data were processed

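Total RNA of 18 day 3 cultures was labelled with biotin and hybridised by the authors to Illumina MouseWG-6 v2.0 bead arrays. The deposited intensity values are bead summaries on a linear scale, not normalized (55.5 to 72879), and each has a deposited detection p-value against the negative control beads (GenomeStudio 2011.01 per the submitters' processing notes). A set of 5 stray lines at the end of the table was left out. Depth has no meaning for arrays, and 3 arrays per group limit the precision: a permutation of 3 against 3 reaches no p below 0.1. No pair of arrays was identical (0 pairs).

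Arrays were corrected and normalized with neqc of limma 3.58.1 in R 4.3.3 (negative controls inferred from the detection p, offset 16, quantile, log2). The study used a cubic spline in its place. The offset understates changes of dim genes. Probes detected at p under 0.05 on at least 3 of 18 arrays were kept (22987), and the brightest probe stood for a gene (16446 genes, 4561 with more than 1 kept probe), as the study did. A single lmFit and eBayes fit of 6 group means gave all contrasts, with Benjamini-Hochberg adjustment over all genes, called at an adjusted p under 0.1 and a log2 change over 1. Intervals are 95%. Folds written "at least" set the brighter group's mean against a floor for the undetected group: on each array the probe's own value or the dimmest detected signal, whichever was larger, averaged over its arrays. The fit was tested on simulated data.

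Groups, doses and replicate numbers came from the labels, which name 10 ng/ml BMP4, where the methods for slide cultures name another dose. Same-number arrays deviated together in ES/PA6 (r = 0.325 to 0.521, 9 pairs), so numbers pair them, as wells of 1 replicate. In PA6 the 9 pairs reached only 0.0628 to 0.164. That lies within the range across culture types (-0.0248 to 0.175, 27 pairs), so a pairing of PA6 arrays is uncertain. The fit has no block, and the block was an alternative. Other alternatives were 3 normalizations, the offset, the filter, the probe rule, the variance model, array weights, fits within a culture type, thresholds and leaving out each array.

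All members are reported at every probe, with called genes of the lists and, for each member, the 5 most correlated genes over 18 arrays and 3 over the PA6 arrays. The members and lists were chosen with earlier results of these data known. Names are those of the array: 13295 of 16446 matched a symbol or synonym of the mouse annotation, the 5 members among them. RefSeq promoters (GRCm38.p6) were searched for motifs on both strands.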

Additional observations from a re-analysis of the deposited data

Results flagged for a closer look

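The effect of FGF2 was called as different between the culture types for a pair of members. The ACE rise in ES/PA6 co-cultures was 1.21 less than in PA6 cells on the log2 scale (difference -1.21, SE 0.378, limma adjusted p = 0.0536), and the ANPEP effect was 1.22 higher in co-cultures (SE 0.418, limma adjusted p = 0.0788). Both were lost after quantile (-0.86 for ACE, 0.85 for ANPEP) or cubic spline normalization (-0.81 and 0.79) and at an adjusted p under 0.05. ACE was undetected on the PA6 -GFs arrays, so the size of its difference rests on values below detection. In this contrast 7.39% of all genes were called. Groups of 3 arrays were too small to look for single outlying arrays.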

How the results depend on the processing

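Over the values of the members, 1039 alternative values kept their direction and side of the threshold, 34 fell below it, 22 passed it and 9 changed sign. The calls of ACE with FGF2 in both culture types and of AGT with FGF2 in PA6 cells held under all 31 alternatives. With BMP4 in co-cultures the members called numbered 0, or 1 (AGT) with the replicate block, and 0 to 1 when each array was left out in turn. With BMP4 in PA6 cells they numbered 0, or 1 after quantile or cubic spline normalization without background correction, 1 with a variance trend and robust fit, 1 with array weights, 1 from PA6 arrays alone and 2 (AGT and AGTR1A) with the replicate block, and 0 to 1 with an array left out. For FGF2 against BMP4 in co-cultures the 2 calls became 1 from ES/PA6 arrays alone and 1 to 2 with an array left out. For the difference of FGF2 effects the 2 calls became 1 under quantile or cubic spline normalization, where ACE (-0.86, -0.81) and ANPEP (0.85, 0.79) were lost and AGT was called, 1 (ACE) without a filter, 1 (ACE) with array weights, 0 at an adjusted p under 0.05, 3 with the replicate block (adding AGT), and 0 to 3 with an array left out. The replicate block changed no other count of members called by over 1.5 times. The ANPEP fall with FGF2 in PA6 cells was -0.77, -0.71, -0.93 and -0.99 under quantile, cubic spline, an offset of 50 and array weights, under the fold threshold each time. Sign changes were confined to differences that were not called, each on leaving out an array. AGTR1A with FGF2 in co-cultures ran from -0.31 to 0.11 (0.11 without ES/PA6 -GFs replicate 1, 0.07 without FGF2 replicate 1), and ACE with BMP4 there from -0.13 to 0.33 (-0.13 without -GFs replicate 3, -0.0031 without BMP4 replicate 1). AGTR1A for FGF2 against BMP4 in PA6 cells ran from -0.021 (without FGF2 replicate 1) to 0.68. The difference of BMP4 effects on AGT ran from -0.60 to 0.64 (0.32 without ES/PA6 -GFs replicate 2, 0.64 without ES/PA6 BMP4 replicate 3, 0.085 without PA6 -GFs replicate 3 and 0.082 without PA6 BMP4 replicate 1). The cause of these shifts was not tested, other than that fewer arrays entered. Over all genes, counts of calls moved with the settings: from 550 to between 125 and 1489 (FGF2, co-cultures), 125 to between 10 and 280 (BMP4, co-cultures, 215 with the block), 867 to between 459 and 3083 (FGF2, PA6) and 232 to between 113 and 632 (BMP4, PA6, 276 with the block). The share of BMP4 calls in co-cultures that were higher was 40.8%, or 27.4% after cubic spline and 30.9% after quantile normalization. Detection on all 18 arrays left no member to test. Signal near background limits AGTR1A, ENPEP and the co-culture values of AGT and ANPEP.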
